A study of Mus musculus with 9 samples.

Results

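The glucocorticoid receptor gene Nr3c1 and 9 genes known as targets of the receptor or as stress-responsive companions of them (Fkbp5, Tsc22d3, Sgk1, Pdk4, Klf9, Per1, Cdkn1a, Errfi1 and Mt2) were followed by symbol through 9 libraries of sorted mouse brain endothelial cells. They make 10 of the 23420 genes in the count matrix, and all 10 were among the 13317 genes that passed the filter on low counts. The 10 symbols were selected on the differences in their counts between genotypes seen earlier in the same libraries, so their fold changes below are a description of these libraries and not independent evidence of a response.

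Endothelial cells positive for CD31 and negative for CD45 were sorted from brains of 6-month-old C57BL/6 mice, 20000 cells per library, with 3 libraries each for APP/PS1xRIPK1KD, APP/PS1 and WT. APP/PS1 mice are a transgenic amyloid model, and APP/PS1xRIPK1KD mice carry the same transgenes with an alteration of Ripk1, a kinase of tumour necrosis factor signalling. The meaning of KD, the promoter of the transgenes and the cells in which Ripk1 was altered have no description in the sources used here. The labels describe the taking of a mouse for each library and give every animal as male, and replicate numbers 1 to 3 occur in each genotype.

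The glucocorticoid receptor waits in the cytoplasm in a complex with Hsp90 chaperones and co-chaperones, and moves to the nucleus when it binds corticosterone, the main glucocorticoid of mice. In the nucleus it binds glucocorticoid response elements, palindromes whose arms resemble AGAACA and TGTTCT, and raises or lowers transcription of nearby genes. In brain endothelium glucocorticoids are known to tighten the blood-brain barrier and to lower the expression of adhesion and inflammatory genes, and Fkbp5 encodes a co-chaperone that lowers the affinity of the receptor for its ligand, closing a short feedback loop.

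Total expected counts ranged from 16263792 to 52413200 with a median of 46603518, so that a count of 0 allows at most 0.0541 to 0.189 CPM per library when 3 counts are taken as the floor. The 8 endothelial markers summed to 17518 to 18991 CPM in APP/PS1xRIPK1KD, 16377 to 19275 CPM in APP/PS1 and 17242 to 18949 CPM in WT. Pecam1, which encodes CD31, was at 976 to 1234 CPM and Cdh5, the endothelial cadherin, at 487 to 645 CPM over all libraries. Ripk1 was at 31.4 to 44.9 CPM in APP/PS1xRIPK1KD, 40.9 to 75.3 CPM in APP/PS1 and 34.9 to 48.1 CPM in WT, which checks no label while the kind of alteration is unknown. The libraries split by replicate number in sex-linked transcripts: replicates 1 and 2 of each genotype (6 libraries) had 264 to 534 CPM of Xist and at most 0.434 CPM of summed Y-linked transcripts, against the male label, whereas the 3 libraries of replicate 3 had at most 4.78 CPM of Xist and 149.8 to 185 CPM of Y-linked transcripts. Summed mural markers (10 genes) were at 66.6 to 256 CPM in APP/PS1xRIPK1KD, 176 to 229 CPM in APP/PS1 and 11.5 to 56.1 CPM in WT, and choroid plexus markers (5 genes) at 172 to 304 CPM, 53.1 to 143 CPM and 38.8 to 68.3 CPM in the same order of genotypes. The 6 fibroblast markers summed to 2.06 to 7.26 CPM in APP/PS1xRIPK1KD, 6.82 to 13.4 CPM in APP/PS1 and 0.132 to 1.24 CPM in WT, with 1 marker at 0 in every library of each genotype, and the 6 astrocyte markers to 4.75 to 11.1, 8.52 to 15 and 2.68 to 5.69 CPM, with 2 markers at 0 throughout WT. The 2 erythroid markers in the matrix summed to 1275.5 to 2323, 1088 to 5329 and 1099 to 1449 CPM in the same order. The 6 oligodendrocyte markers summed to 31.5 to 33.4, 30.4 to 82.5 and 26.1 to 40.4 CPM. APP/PS1 replicate 3 was the highest library for both. Reads of the ribosomal precursor Rn45s took 23.0% ± 3.19 of counts in APP/PS1xRIPK1KD, 24.2% ± 7.33 in APP/PS1 and 32.3% ± 2.27 in WT (SD, n = 3 each). The part of these differences in the values below was not tested, except that values from replicates 1 and 2 alone are given where they bear on a result.

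Promoter sequence was available for 9 of the 10 genes, in 19 windows of 250 bases directly upstream of RefSeq transcript starts on GRCm38.p6. A full glucocorticoid response element is written here as AGAACA, 3 bases of any kind and TGTTCT. It was present in 3 of the 32851 such windows in the promoter set searched (0.00913%), which does not cover every mouse gene. Of those 3, 1 belongs to Sgk1. The single arm AGAACA, searched on both strands as were all motifs, was present in 16.1% of windows, and the E-box CACGTG, the element that clock activators bind, in 6.02%. Windows of Fkbp5, Klf9 and Per1 are shown because these genes had low values in APP/PS1xRIPK1KD, and the Sgk1 window because it holds the full palindrome. Tsc22d3 had low values there as well, but its windows are not shown. The single arm found in them is given below. Each is written 5′ to 3′ on the strand of the gene, and capitals mark the response element, its arms and the E-box.
Fkbp5, chr17:28486150-28486399, minus strand: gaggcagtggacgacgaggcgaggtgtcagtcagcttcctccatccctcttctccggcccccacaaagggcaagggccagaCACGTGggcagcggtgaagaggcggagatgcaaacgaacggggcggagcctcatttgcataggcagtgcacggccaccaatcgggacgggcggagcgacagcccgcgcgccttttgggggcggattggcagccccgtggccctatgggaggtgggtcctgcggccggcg
Klf9, chr19:23140976-23141225, plus strand: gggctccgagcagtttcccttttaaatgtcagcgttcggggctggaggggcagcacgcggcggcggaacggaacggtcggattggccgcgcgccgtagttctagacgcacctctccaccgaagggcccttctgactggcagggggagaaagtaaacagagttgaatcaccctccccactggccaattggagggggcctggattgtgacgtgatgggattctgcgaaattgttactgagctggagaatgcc
Per1, chr11:69098699-69098948, plus strand: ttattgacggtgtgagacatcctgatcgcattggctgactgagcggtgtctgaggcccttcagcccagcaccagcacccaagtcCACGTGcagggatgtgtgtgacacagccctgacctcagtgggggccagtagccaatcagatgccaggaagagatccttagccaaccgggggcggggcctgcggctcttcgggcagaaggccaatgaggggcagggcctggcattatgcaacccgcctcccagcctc
Sgk1, chr10:21993640-21993889, plus strand: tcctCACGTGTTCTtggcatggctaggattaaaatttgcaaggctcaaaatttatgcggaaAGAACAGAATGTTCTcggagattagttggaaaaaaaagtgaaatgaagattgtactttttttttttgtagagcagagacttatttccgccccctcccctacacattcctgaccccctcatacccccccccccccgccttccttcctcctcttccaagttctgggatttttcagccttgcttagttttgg

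In the Sgk1 window the palindrome begins at position -189 from the transcript start, and a further arm at position -242 overlaps an E-box at position -246. The Fkbp5 window held an E-box at position -169 and no arm of the response element, the Per1 window held an E-box at position -166, and the Klf9 window held none of these letters. Enhancers of Fkbp5 bound by the receptor are known mainly from its introns, which lie outside these windows. Among the other windows, single arms were found at position -185 of the second Tsc22d3 window, -195 of the first and -13 of the fourth Sgk1 window. Elements of other pathways were found at position -128 of Mt2 and -69 of the second Per1 window (the metal response element TGCGCNC, present in 12.5% of windows), at position -51 of the second Errfi1 window (the cyclic AMP response element TGACGTCA, 1.55% of windows) and at positions -73 and -51 of the first Cdkn1a window (single decamers of the p53 element, 7.13% of windows). The windows of Pdk4 and Klf9 held none of the motifs searched. A match is a description of letters and does not show that a factor binds there.

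Scaled per kilobase of exon, so that genes can be set against each other, the levels of the 10 genes spanned about 2 orders of magnitude. Tsc22d3 was the most abundant at 194 CPM per kb averaged over 9 libraries, above 99.0% of the 12443 tested genes with a known length, followed by Cdkn1a at 107 CPM per kb and Mt2 at 95.0 CPM per kb. Klf9 (41.4 CPM per kb), Sgk1 (37.6 CPM per kb), Per1 (24.6 CPM per kb) and Nr3c1 (23.7 CPM per kb) formed a middle tier, each above at least 87.0% of genes. Pdk4 (3.73 CPM per kb), Errfi1 (2.76 CPM per kb) and Fkbp5 (1.93 CPM per kb) were low, with Fkbp5 above 34.8% of genes. Within the middle tier Klf9 and Sgk1 overlapped in their spread in APP/PS1xRIPK1KD (31.9 ± 0.436 and 33.3 ± 3.64 CPM per kb, SD, n = 3), and Per1 and Nr3c1 overlapped in APP/PS1 (25.3 ± 7.00 and 25.4 ± 3.67 CPM per kb).

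The transcript of the receptor itself overlapped between all genotypes. Nr3c1 was at 172, 196 and 188 CPM in APP/PS1xRIPK1KD, at 206, 216 and 163 CPM in APP/PS1 and at 149.8, 151 and 194 CPM in WT. WT replicates 1 and 2 were the lowest of the 9 libraries, and APP/PS1 replicates 1 and 2 the highest. The log2 fold changes were -0.07 ± 0.15 for APP/PS1xRIPK1KD against APP/PS1, 0.17 ± 0.15 for APP/PS1xRIPK1KD against WT and 0.24 ± 0.15 for APP/PS1 against WT (± SE, edgeR quasi-likelihood FDR 1.00, 0.976 and 0.859 over all 13317 genes). Within replicates 1 and 2 alone they were -0.20, 0.29 and 0.49 (edgeR FDR 0.728, 0.770 and 0.297), and the APP/PS1 libraries then did not overlap those of WT. Against APP/PS1 the value turned to 0.02 without APP/PS1 replicate 2. Transcript level does not report hormone binding or nuclear entry of the receptor, neither of which was measured.

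Fkbp5 had the largest fold difference of the 10 genes between APP/PS1xRIPK1KD and each of the other genotypes, and was lower in APP/PS1xRIPK1KD. Its gene lies on chr17:28399094-28517527, minus strand (GENCODE M21, GRCm38). It was at 7.40, 4.02 and 7.39 CPM in APP/PS1xRIPK1KD, at 17.6, 35.9 and 15.5 CPM in APP/PS1 and at 28.5, 26.9 and 20.9 CPM in WT. Every APP/PS1xRIPK1KD library lay below every library of APP/PS1 and of WT, while APP/PS1 and WT overlapped, with replicate 2 of APP/PS1 the highest of all 9. Group means were 6.27 ± 1.95 CPM in APP/PS1xRIPK1KD, 23.0 ± 11.2 CPM in APP/PS1 and 25.4 ± 4.02 CPM in WT (SD, n = 3 each).

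**Figure D1:**
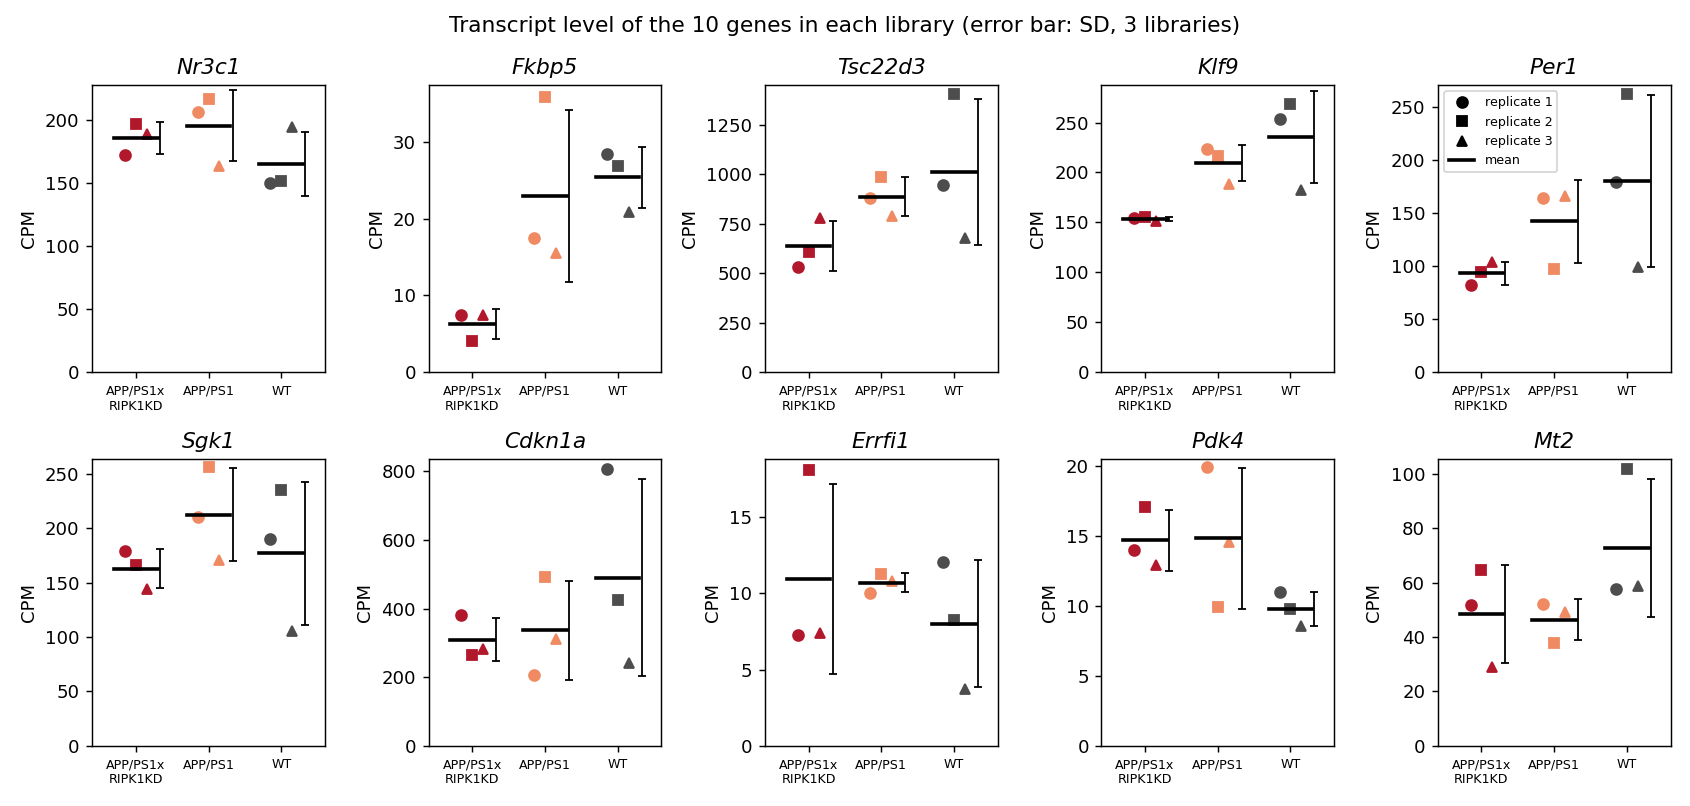
Level of the receptor gene and its 9 companions in each library (CPM after TMM scaling, linear axes), with APP/PS1xRIPK1KD, APP/PS1 and WT from left to right and the mean ± SD of 3 libraries drawn beside the points. The 3 APP/PS1xRIPK1KD points of Fkbp5 lie between 4.02 and 7.40 CPM, under all 6 others, whereas those of Nr3c1 lie among the others.

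The Fkbp5 difference was 3.67-fold against APP/PS1 (log2 fold change -1.88 ± 0.35) and 4.05-fold against WT (-2.02 ± 0.35), lower in APP/PS1xRIPK1KD in both. By p it ranked 2 of 13317 genes in the first comparison and 10 of 13317 in the second. Neither passed adjustment over all genes in the edgeR quasi-likelihood test (FDR 0.696 and 0.117), whereas the adjusted p of DESeq2 was 0.00121 and 3.00e-05, and that of the edgeR likelihood ratio test 0.00414 and 0.000124. Without APP/PS1 replicate 2, the library with the highest value, the difference from APP/PS1 was -1.38 on the log2 scale. Within replicates 1 and 2 alone it was -2.23 against APP/PS1 and -2.28 against WT (edgeR FDR 0.275 and 0.207). APP/PS1 against WT gave -0.14 ± 0.34 (edgeR FDR 0.984), with -0.62 without APP/PS1 replicate 2 and 0.08 without APP/PS1 replicate 3, and the authors' deposited table gives -0.26 for it with an FDR of 0.989.

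Tsc22d3 and Klf9 also stood lower in APP/PS1xRIPK1KD, by smaller amounts. Tsc22d3 encodes GILZ, a leucine zipper protein that binds and restrains inflammatory transcription factors, and lies on chrX:140539528-140600659. It was at 532, 607 and 776 CPM in APP/PS1xRIPK1KD, at 879.7, 986 and 789 CPM in APP/PS1 and at 943, 1406 and 678 CPM in WT. All APP/PS1xRIPK1KD libraries were below all APP/PS1 libraries, and WT replicate 3 fell within the APP/PS1xRIPK1KD range. The log2 fold change was -0.47 ± 0.23 against APP/PS1 and -0.66 ± 0.23 against WT (edgeR FDR 1.00 and 0.662). It depended on the replicates entered: with replicates 1 and 2 alone the values were -0.71 and -1.05, and without WT replicate 2, which had the highest level, the difference from WT was -0.34.

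Klf9, a zinc finger repressor that follows the daily glucocorticoid rhythm (chr19:23141226-23168134), had the smallest relative spread of the 10 genes within APP/PS1xRIPK1KD. It was at 154, 156 and 151 CPM in APP/PS1xRIPK1KD, at 223, 216 and 189 CPM in APP/PS1 and at 254, 269 and 183 CPM in WT. The 3 APP/PS1xRIPK1KD libraries were below the other 6, and APP/PS1 and WT overlapped. Replicate 3 had the lowest level of its genotype in each of the 3. The log2 fold change was -0.44 ± 0.15 against APP/PS1 and -0.61 ± 0.15 against WT (edgeR FDR 0.980 and 0.531), with an adjusted p of 0.0372 by DESeq2 in the comparison with WT.

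Per1, a repressor of the circadian clock with response elements of its own (chr11:69095217-69109960), was at 82.0, 94.1 and 104 CPM in APP/PS1xRIPK1KD, at 164, 96.9 and 166 CPM in APP/PS1 and at 179.8, 262 and 99.2 CPM in WT. Replicate 2 of APP/PS1 and replicate 3 of WT lay inside the APP/PS1xRIPK1KD range, so the genotypes overlapped. The log2 fold change was -0.61 ± 0.30 against APP/PS1 and -0.95 ± 0.30 against WT (edgeR FDR 1.00 and 0.640). In the comparison with WT it was -0.58 without WT replicate 2 and -1.24 without WT replicate 3.

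Sgk1, a kinase that regulates ion channels and transporters (chr10:21882184-21999903), did not share this order. It was at 179, 166 and 144 CPM in APP/PS1xRIPK1KD, at 210.1, 257 and 171 CPM in APP/PS1 and at 190.5, 235 and 105 CPM in WT. The genotypes overlapped, and replicate 3 had the lowest level of its genotype in each of the 3. The log2 fold change was -0.38 ± 0.24 against APP/PS1 and -0.12 ± 0.24 against WT (edgeR FDR 1.00 and 0.997), and the value against WT turned to 0.14 without WT replicate 2.

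Cdkn1a, the cell cycle inhibitor p21 that p53 also induces (chr17:29090976-29100727), varied widely within genotypes. It was at 381, 265 and 283 CPM in APP/PS1xRIPK1KD, at 207, 493 and 310.2 CPM in APP/PS1 and at 807, 424 and 241 CPM in WT. The spread within APP/PS1 and WT covered the APP/PS1xRIPK1KD libraries, and the log2 fold changes were -0.12 ± 0.43 against APP/PS1 and -0.66 ± 0.43 against WT (edgeR FDR 1.00 and 0.910). Without WT replicate 1, its highest library, the value against WT was -0.10, and without APP/PS1 replicate 2 the value against APP/PS1 turned to 0.27.

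Pdk4, Errfi1 and Nr3c1 were the 3 of the 10 genes with a fold change above 0 in APP/PS1xRIPK1KD against WT. Pdk4, a kinase that inhibits the pyruvate dehydrogenase complex and so spares glucose (chr6:5483351-5496309), was at 14.0, 17.1 and 12.9 CPM in APP/PS1xRIPK1KD, at 20.0, 9.93 and 14.6 CPM in APP/PS1 and at 11, 9.75 and 8.56 CPM in WT. All 3 APP/PS1xRIPK1KD libraries were above all WT libraries, and APP/PS1 spanned both. The log2 fold change was 0.59 ± 0.29 for APP/PS1xRIPK1KD against WT and 0.60 ± 0.29 for APP/PS1 against WT (edgeR FDR 0.835 and 0.829). Without APP/PS1 replicate 1 the value of APP/PS1 was 0.33, and the authors' deposited table gives 0.58 for APP/PS1 against WT.

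Errfi1, a feedback inhibitor of the EGF receptor (chr4:150853919-150868892), was at 7.26, 18.1 and 7.42 CPM in APP/PS1xRIPK1KD, at 10, 11.3 and 10.8 CPM in APP/PS1 and at 12.0, 8.28 and 3.72 CPM in WT. Replicate 2 of APP/PS1xRIPK1KD was the highest library and replicate 3 of WT the lowest, and all genotypes overlapped. Its log2 fold change against WT was 0.45 ± 0.45 for APP/PS1xRIPK1KD and 0.42 ± 0.45 for APP/PS1 (edgeR FDR 0.979 and 0.931). Without replicate 2 of APP/PS1xRIPK1KD the value of APP/PS1xRIPK1KD turned to -0.11, and without WT replicate 3 that of APP/PS1 was 0.08.

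Mt2, a metallothionein that binds zinc and copper (chr8:94172664-94173568), was the 1 gene of the 10 whose APP/PS1 libraries stood apart from WT. It was at 51.8, 64.8 and 29.0 CPM in APP/PS1xRIPK1KD, at 52.1, 37.7 and 49.4 CPM in APP/PS1 and at 57.5, 102 and 58.6 CPM in WT. All APP/PS1 libraries were below all WT libraries, and APP/PS1xRIPK1KD overlapped both. The log2 fold change was -0.65 ± 0.29 for APP/PS1 against WT and -0.58 ± 0.29 for APP/PS1xRIPK1KD against WT (edgeR FDR 0.795 and 0.847), and -0.32 and -0.26 without WT replicate 2, the highest library. Mt1 and Mt2 are closely similar neighbours, so the division of reads between them is uncertain, and Mt1 likewise had all APP/PS1 libraries (105, 93.3 and 94.6 CPM) below all WT libraries (133, 247 and 111 CPM), with a log2 fold change of -0.75 ± 0.32 (edgeR FDR 0.795). Mt2 and Cdkn1a each overlap an annotated gene on the opposite strand, by 432 and 273 bases, whose reads an unstranded library cannot separate.

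**Figure D2:**
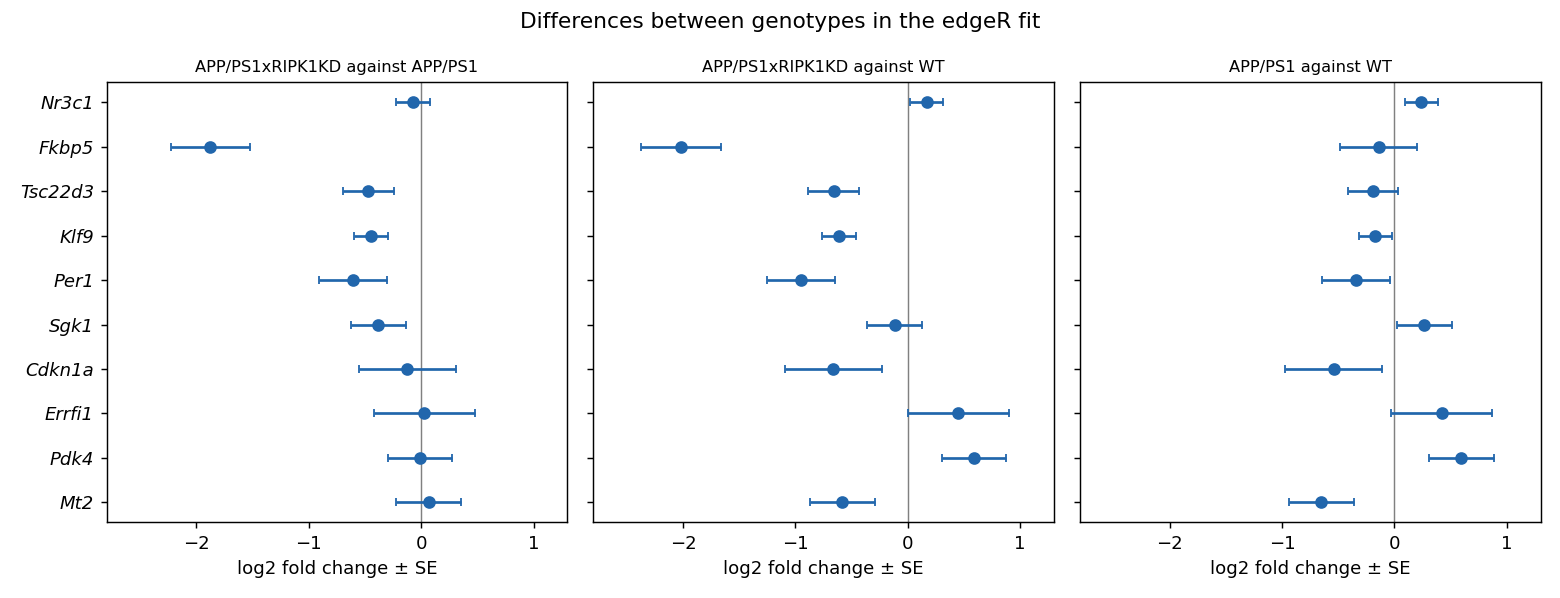
Log2 fold change ± SE from the edgeR fit for the 10 genes, 1 panel for each comparison, with a vertical line at 0. Fkbp5 lies at -1.88 and -2.02 in the panels for APP/PS1xRIPK1KD against APP/PS1 and against WT, and at -0.14 for APP/PS1 against WT.

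Counted over the 10 genes, 0 passed an edgeR FDR of 0.05 in APP/PS1xRIPK1KD against APP/PS1, where 0.00751% of all tested genes did. In that comparison 2 were lower at an unadjusted p under 0.05 (Fkbp5 and Klf9, against 2.34% of all genes), 0 were higher at that p (2.44% of all genes), and the libraries of 3 did not overlap and were lower (Fkbp5, Tsc22d3 and Klf9, against 4.66%), with 0 non-overlapping and higher (5.32%). Of all tested genes 4.78% had such a p in either direction, and 2 of the 10 did. DESeq2 called 1 of the 10, Fkbp5, against 0.143% of all genes. In APP/PS1xRIPK1KD against WT, 0 passed the edgeR FDR (0.0375% of all genes), and 4 were lower at an unadjusted p under 0.05 (Fkbp5, Klf9, Per1 and Tsc22d3, against 3.21%) and 0 higher (2.97%), beside 6.18% of all genes with such a p in either direction. There 2 did not overlap and were lower (Fkbp5 and Klf9, against 5.99%), 1 did not overlap and was higher (Pdk4, against 6.05%), and DESeq2 called 2 (Fkbp5 and Klf9, against 0.468%). In APP/PS1 against WT, 0 passed the edgeR FDR (0.0225% of all genes) or DESeq2 (0.34%), and 1 was lower at an unadjusted p under 0.05 (Mt2, against 2.65%), which was also the 1 lower without overlap (5.44%). None of the 10 was higher there at that p (3.49% of all genes, and 6.14% had such a p in either direction) or without overlap (5.43%). Fold changes were below 0 for 8 of the 10 against APP/PS1 (50.6% of all genes) and for 7 against WT (49.4%) in APP/PS1xRIPK1KD, and for 6 in APP/PS1 against WT (49.8%). Those above 0 numbered 2 (49.4% of all genes), 3 (50.6%) and 4 (50.2%). Because the genes were chosen with these contrasts known, nothing is read from the counts. The median log2 fold change of the 10 was -0.25, -0.60 and -0.15 in the 3 comparisons in this order, beside medians within 0.01 of 0 over all tested genes.

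Levels of the 10 genes across libraries differed in how closely they followed Fkbp5. Over the 9 libraries, which differ in genotype and sex-linked expression, the Pearson correlation of log2 CPM with Fkbp5 was 0.846 for Klf9, 0.733 for Tsc22d3, 0.527 for Per1 and 0.481 for Cdkn1a. It was 0.39 for Sgk1, 0.168 for Mt2, -0.162 for Nr3c1, -0.217 for Errfi1 and -0.597 for Pdk4. After the genotype means were removed, it was 0.354 for Klf9, 0.403 for Tsc22d3, -0.211 for Per1 and 0.646 for Cdkn1a, so most of the likeness of Klf9 and Per1 to Fkbp5 lay between genotypes. Tsc22d3 and Klf9 stayed alike within genotypes (0.869 in all and 0.766 after removal), as did Sgk1 and Klf9 (0.583 and 0.936). For both Sgk1 and Klf9, replicate 3 was the lowest library of each genotype, and replicate 3 also differs in sex-linked transcripts. The part of that split in their likeness was not tested. Correlations of the other pairs without Fkbp5 are not given here.

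The 6 genes most like Fkbp5 in log2 CPM, among 9725 genes averaging at least 5 CPM, were Sult1a1, Naca, G6pc3, Kcna5, Suclg2 and Fas. Their Pearson correlations over 9 libraries were between 0.915 and 0.951, highest for Sult1a1, a phenol sulfotransferase. Sult1a1 was at 100.1, 66.0 and 110.4 CPM in APP/PS1xRIPK1KD, at 146, 195 and 111 CPM in APP/PS1 and at 154, 175 and 165 CPM in WT. Like Fkbp5 it had its lowest value in replicate 2 of APP/PS1xRIPK1KD and its highest in replicate 2 of APP/PS1, and the APP/PS1xRIPK1KD libraries lay below all others. Kcna5, a voltage-gated potassium channel, was at 4.73, 5.86 and 7.64 CPM in APP/PS1xRIPK1KD, at 9.06, 21.6 and 9.54 CPM in APP/PS1 and at 20.4, 16.5 and 13.8 CPM in WT. Fas, the death receptor, had the highest correlation of the 6 after genotype means were removed (0.964) and was at 134, 104 and 153 CPM in APP/PS1xRIPK1KD, 158, 223 and 138 CPM in APP/PS1 and 219, 232 and 189 CPM in WT. Naca, a subunit of the nascent polypeptide-associated complex, followed the same order within a narrow range, from 205 to 230.0 CPM over all libraries. Fam107a, a glucocorticoid-induced actin-binding protein that ranked 8 and is named here after its values were seen, was at 72.9, 32.5 and 93.1 CPM in APP/PS1xRIPK1KD, at 110.5, 158 and 107 CPM in APP/PS1 and at 135, 120.1 and 113 CPM in WT.

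**Figure D3:**
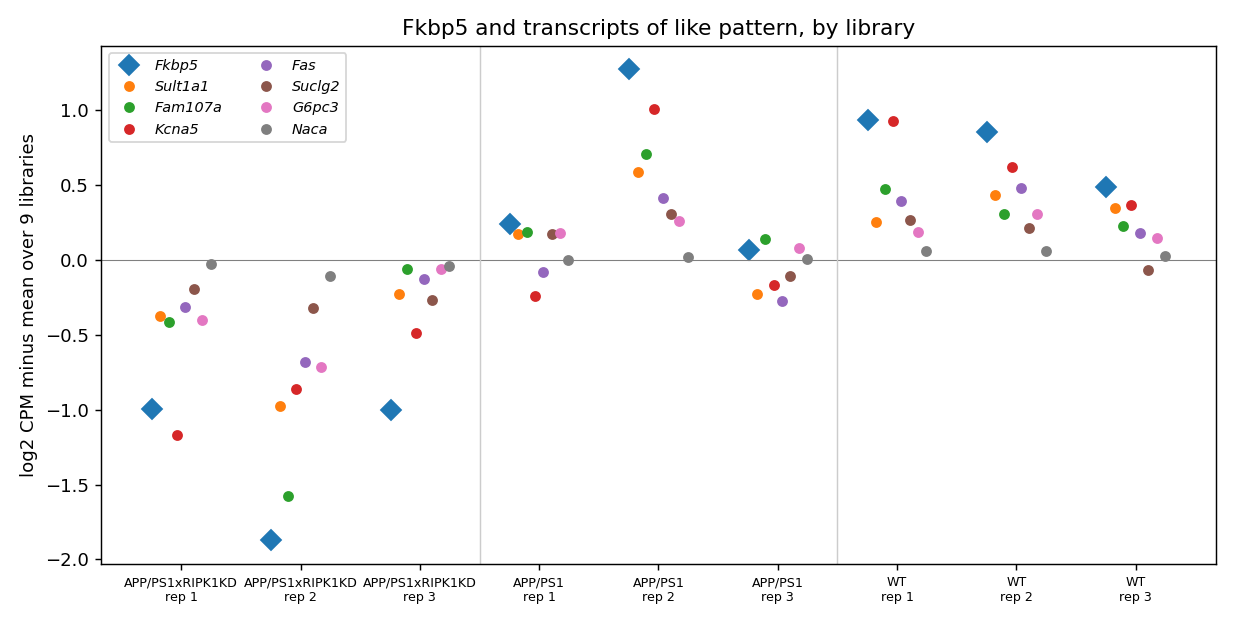
Log2 CPM of Fkbp5 (diamonds) and 7 transcripts of like pattern (circles), each minus its own mean over the 9 libraries, with the libraries of APP/PS1xRIPK1KD, APP/PS1 and WT from left to right. All 8 are at or below their mean in the 3 APP/PS1xRIPK1KD libraries, Naca least of all.

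A wider list of 30 further genes known to be induced by glucocorticoids (29 tested) was mostly on the low side in APP/PS1xRIPK1KD. This list and the companion lists below were chosen with earlier results of these data known. Their counts and medians are therefore a description of these libraries and not independent evidence. In APP/PS1xRIPK1KD against APP/PS1, 23 of 29 had a fold change below 0 (50.6% of all tested genes did) and the median was -0.32 in log2 units, and in APP/PS1xRIPK1KD against WT 22 of 29 (49.4% of all) with a median of -0.46. No gene of the list passed the edgeR FDR of 0.05 in any comparison, and DESeq2 called 3 lower in APP/PS1xRIPK1KD against WT (Cebpd, Map3k6 and Sult1a1, beside 0.468% of all genes called in either direction) and 0 in the others. At an unadjusted p under 0.05, 6 were lower and 0 higher against APP/PS1 (2.34% and 2.44% of all genes), and 10 were lower and 1 higher against WT (3.21% and 2.97%). In APP/PS1 against WT, 20 of 29 were below 0 (49.8% of all) with a median of -0.15, and 4 were lower and 1 higher at that p (2.65% and 3.49% of all genes). Over the 17 alternative settings the number lower at that p against WT ran from 7 without WT replicate 2 to 14 without WT replicate 3, and against APP/PS1 from 4 without APP/PS1 replicate 1 to 9 with the other genotype left out. In APP/PS1 against WT it ran from 0 without APP/PS1 replicate 1 to 7 with replicates 1 and 2 alone. With replicates 1 and 2 alone 19 of the 29 were below 0 against APP/PS1 and 25 against WT.

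Map3k6, a kinase upstream of stress-activated kinases, was at 98.0, 94.0 and 122 CPM in APP/PS1xRIPK1KD, at 186, 124 and 169.6 CPM in APP/PS1 and at 231, 203 and 158 CPM in WT. Its APP/PS1xRIPK1KD libraries were below all others, with log2 fold changes of -0.61 ± 0.18 against APP/PS1 and -0.91 ± 0.18 against WT (edgeR FDR 0.980 and 0.254). Sult1a1, described above, belongs to this list as well and gave -0.71 ± 0.22 and -0.84 ± 0.22 (edgeR FDR 0.980 and 0.549). Cebpd, a transcription factor of acute-phase genes, was at 51.8, 51.8 and 40.5 CPM in APP/PS1xRIPK1KD, 72.7, 47.4 and 83.0 CPM in APP/PS1 and 79.4, 88.8 and 82.8 CPM in WT, apart from WT but overlapping APP/PS1. Tgm2, a transglutaminase, gave -0.66 ± 0.21 against WT and -0.11 ± 0.21 against APP/PS1 (edgeR FDR 0.610 and 1.00), and Zfp36, which destabilises inflammatory messages, gave 0.04 ± 0.17 and -0.42 ± 0.17 (edgeR FDR 0.999 and 0.980).

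Lcn2, an iron-binding acute-phase protein named after its values were seen, was at 1.59, 3.1 and 2.54 CPM in APP/PS1xRIPK1KD, 3.71, 6.45 and 8.56 CPM in APP/PS1 and 4.6, 3.53 and 110.2 CPM in WT, so that replicate 3 alone set its high mean in WT. Not every gene of the list was low. Arrdc3, an arrestin-like adaptor named after its values were seen, was at 52, 32.2 and 36.0 CPM in APP/PS1xRIPK1KD, 38.6, 24.3 and 27.1 CPM in APP/PS1 and 21.8, 10 and 26.4 CPM in WT. It was the gene of the list that was higher than WT at an unadjusted p under 0.05 (log2 fold change 1.05 ± 0.33, edgeR FDR 0.610). Dusp1, a phosphatase that switches off stress kinases and also named after its values were seen, was at 139.7, 249 and 263 CPM in APP/PS1xRIPK1KD, 388, 331 and 373 CPM in APP/PS1 and 329, 247 and 83.9 CPM in WT. It stood lower than APP/PS1 in every library and overlapped WT.

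**Figure D4:**
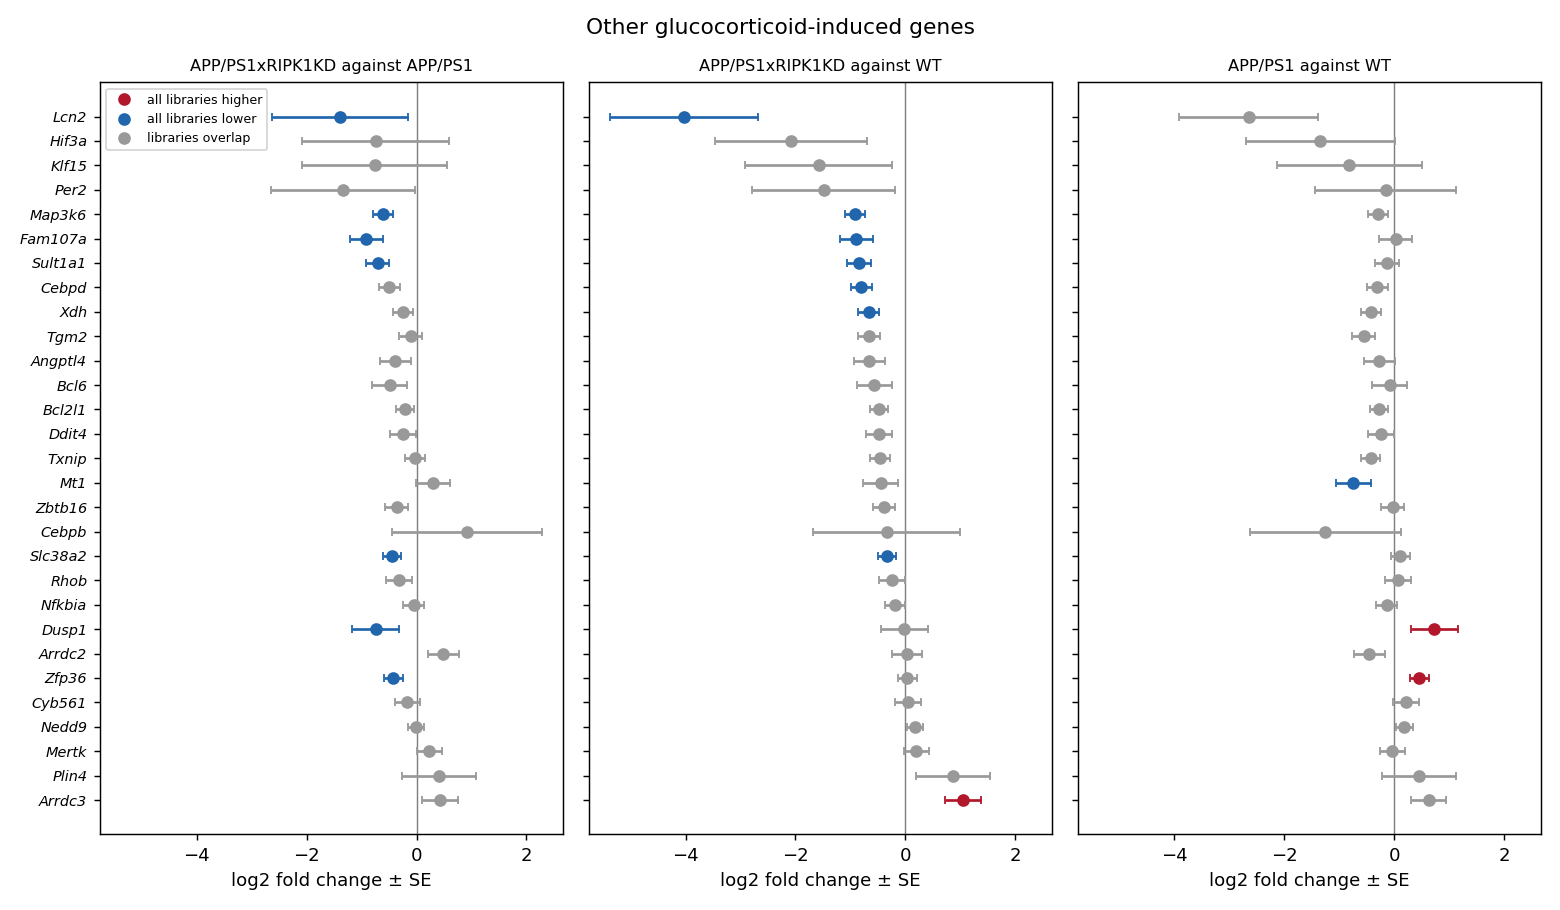
Log2 fold change ± SE from the edgeR fit for the 29 tested genes of the wider glucocorticoid-induced list, 1 panel for each comparison, with a vertical line at 0. Blue marks genes with every library lower, red genes with every library higher and grey genes whose libraries overlap. In APP/PS1xRIPK1KD 7 are blue against APP/PS1 (4.66% of all tested genes were lower without overlap) and 7 against WT (5.99%). In APP/PS1 against WT 1 is blue (5.44%). Red genes number 0, 1 and 2 in the same order, beside 5.32%, 6.05% and 5.43% of all tested genes.

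Several chaperone genes of the receptor complex were higher in both transgenic genotypes than in WT by value. Of 16 tested genes for chaperones, co-chaperones and ligand metabolism, 6 were above 0 and 10 below in APP/PS1xRIPK1KD against APP/PS1 (median log2 fold change -0.03), 11 above and 5 below in APP/PS1xRIPK1KD against WT (median 0.21), and 11 above and 5 below in APP/PS1 against WT (median 0.25), beside 49.4%, 50.6% and 50.2% of all genes above 0. None passed the edgeR FDR of 0.05, and DESeq2 called 1, Hsp90aa1, in APP/PS1 against WT (0.34% of all genes). At an unadjusted p under 0.05, 1 was lower and 0 higher in the first comparison (2.34% and 2.44% of all genes), 4 were higher and 1 lower in the second (2.97% and 3.21%) and 4 were higher in the third (3.49%). Hsp90aa1, the inducible Hsp90 that holds the receptor ready for ligand, was at 304, 357 and 509 CPM in APP/PS1xRIPK1KD, 429.7, 531 and 335 CPM in APP/PS1 and 234, 261 and 258 CPM in WT. Both groups with the APP/PS1 transgenes were above WT in every library, with log2 fold changes of 0.64 ± 0.20 for APP/PS1xRIPK1KD and 0.79 ± 0.20 for APP/PS1 (edgeR FDR 0.610 and 0.707). Hsp90ab1, the constitutive Hsp90, gave 0.47 ± 0.15 and 0.49 ± 0.15 in the same comparisons (edgeR FDR 0.647 and 0.787).

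Fkbp4 encodes the co-chaperone FKBP52, the close relative of the Fkbp5 product that favours nuclear transport of the receptor. It was at 283, 269 and 326 CPM in APP/PS1xRIPK1KD, at 186, 252 and 261 CPM in APP/PS1 and at 198, 253 and 180.2 CPM in WT. All APP/PS1xRIPK1KD libraries were above all others, the opposite direction to Fkbp5, with log2 fold changes of 0.33 ± 0.17 against APP/PS1 and 0.48 ± 0.17 against WT (edgeR FDR 1.00 and 0.662). Per kilobase of exon Fkbp4 was at 105 ± 10.5 CPM in APP/PS1xRIPK1KD, 83.4 ± 14.7 CPM in APP/PS1 and 75.2 ± 13.5 CPM in WT, far above Fkbp5 at 0.662 ± 0.206, 2.43 ± 1.19 and 2.68 ± 0.424 CPM in the same order (SD, n = 3 each). Bag1, a co-chaperone of Hsp70 that lowers receptor activity, gave -0.55 ± 0.25 against APP/PS1 (edgeR FDR 1.00). Hsd11b1, the enzyme that regenerates active glucocorticoid, was not tested: it was at 0, 0.228 and 0.378 CPM in APP/PS1xRIPK1KD and at 0 in every library of APP/PS1 and WT. In bulk libraries fewer cells of a type and less RNA per cell cannot be told apart for any of these transcripts.

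Inflammatory genes that glucocorticoids are known to repress were also mostly below 0 in APP/PS1xRIPK1KD. Some of those tested were low: Ccl5, Selp, Cxcl1 and Cxcl10, named after their values were seen, averaged at most 4.19 CPM in any genotype. They weigh in the counts and medians like the others. Vcam1 and Ptgs2, also named after their values were seen, varied widely within WT. Vcam1 was there at 30.0 to 441 CPM and Ptgs2 at 6.75 to 127 CPM, so their WT means depend on the libraries entered. Of 18 such genes 9 were tested, and 2 were above 0 and 7 below in APP/PS1xRIPK1KD against APP/PS1 (median log2 fold change -0.79), with 3 above and 6 below against WT (median -0.57) and 5 above and 4 below in APP/PS1 against WT (median 0.42), beside 50.6%, 49.4% and 49.8% of all genes below 0. Il1r1, the interleukin 1 receptor, was at 33.8, 42.1 and 52.7 CPM in APP/PS1xRIPK1KD, 90.1, 127 and 65.7 CPM in APP/PS1 and 113, 65.0 and 167 CPM in WT, below every library of both other genotypes (-1.14 ± 0.32 and -1.42 ± 0.33, edgeR FDR 0.980 and 0.419). It was the 1 gene of this list that DESeq2 called, lower against WT (0.468% of all genes), whereas the edgeR FDR called 0. At an unadjusted p under 0.05, 1 was higher and 2 were lower against APP/PS1 (2.44% and 2.34% of all genes), 1 was lower against WT (3.21%), and 0 passed in APP/PS1 against WT (6.14% in either direction). Icam1, a leukocyte adhesion molecule, gave -0.79 ± 0.34 against APP/PS1, and Nos2, the inducible nitric oxide synthase, gave 0.90 ± 0.33 (edgeR FDR 0.999 and 0.980).

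Lists that share members with other pathways were set beside the 10 genes. Clock genes, to which Per1 belongs, had 3 above 0 and 11 below in APP/PS1xRIPK1KD against APP/PS1 (median log2 fold change -0.70) and the same counts against WT (median -0.51), and 9 above and 5 below in APP/PS1 against WT. Of all tested genes 50.6%, 49.4% and 49.8% were below 0 in these comparisons. Within genotypes some of them varied widely. Per2, named after its values were seen, was at 8.89, 13.9 and 8.83 CPM in APP/PS1xRIPK1KD, 45.6, 3.58 and 31.2 CPM in APP/PS1 and 1.33, 70.7 and 16.8 CPM in WT. Dbp, an output gene of the clock likewise named after its values were seen, was at 11.2, 43.7 and 86.8 CPM in APP/PS1xRIPK1KD, 219, 24.1 and 103 CPM in APP/PS1 and 14.5, 219.9 and 131 CPM in WT. Others varied less. Clock, also named after its values were seen, was at 30.2 to 45.6 CPM in APP/PS1xRIPK1KD, 30.7 to 39.6 CPM in APP/PS1 and 30.6 to 34.1 CPM in WT. The sources used here give no time of day for the taking of each animal, and the part of clock phase in the levels of Per1, Klf9 and the other targets was not tested. Hlf, another output gene, gave -1.34 ± 0.51 against APP/PS1 and -1.16 ± 0.51 against WT (edgeR FDR 0.980 and 0.787). It was the 1 clock gene lower at an unadjusted p under 0.05 in each of these comparisons (2.34% and 3.21% of all genes), and 0 clock genes passed an adjusted p of 0.05 by edgeR or DESeq2.

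Immediate early genes, transcribed within minutes of a stimulus, were mostly on the high side in APP/PS1. Of 17, 2 were above 0 and 15 below in APP/PS1xRIPK1KD against APP/PS1 (median -0.52), 8 above and 9 below in APP/PS1xRIPK1KD against WT (median -0.04), and 14 above and 3 below in APP/PS1 against WT (median 0.38), where fold changes below 0 made up 50.6%, 49.4% and 49.8% of all genes in these comparisons. At an unadjusted p under 0.05, 8 were lower in the first comparison (2.34% of all genes), 0 passed in either direction in the second (6.18%) and 7 were higher in the third (3.49%). The edgeR FDR called 0, and DESeq2 called 1, Fos, in APP/PS1 against WT (0.34% of all genes). Fos was at 45.3, 33.6 and 108 CPM in APP/PS1xRIPK1KD, 255, 72.2 and 220.3 CPM in APP/PS1 and 34.7, 32.8 and 28.4 CPM in WT. Its APP/PS1 replicate 2, the library with the most Fkbp5, was the lowest of its genotype. Egr1 gave -1.06 ± 0.33 against APP/PS1 and 0.05 ± 0.33 against WT for APP/PS1xRIPK1KD (edgeR FDR 0.980 and 0.999).

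Of the genes in the remaining lists, 0 passed an adjusted p of 0.05 by edgeR or DESeq2. Of 12 further p53 targets, 6 were above 0 and 6 below in APP/PS1xRIPK1KD against APP/PS1 and 5 above and 7 below against WT, with Trp53inp1, an autophagy and cell death regulator, at -0.89 ± 0.29 and Mdm2, the ligase that degrades p53, at -0.08 ± 0.19 against WT (edgeR FDR 0.640 and 0.999). Sesn1, another gene of this list, averaged 110 ± 16.6 CPM in APP/PS1xRIPK1KD, 122 ± 19.5 CPM in APP/PS1 and 169 ± 55.3 CPM in WT (SD, n = 3 each). Among 7 metallothionein and zinc genes the counts were 3 above and 4 below in both comparisons of APP/PS1xRIPK1KD, and the zinc exporter Slc30a1 was at 108, 107 and 105 CPM in APP/PS1xRIPK1KD, below the 113 to 171 CPM of APP/PS1 and the 124 to 136 CPM of WT. Genes of the pyruvate dehydrogenase complex and of fasting (12 genes) had 7 above 0 and 5 below against APP/PS1 and 8 above and 4 below against WT. There Foxo1, a transcription factor that induces Pdk4, gave 0.36 ± 0.17 and Angptl4, an inhibitor of lipoprotein lipase, -0.66 ± 0.28 in APP/PS1xRIPK1KD against WT (edgeR FDR 0.833 and 0.776). Of 16 tested paralogues of the 10 genes, 7 were above 0 and 9 below against APP/PS1 and 6 above and 10 below against WT, and the paralogues Pdk2, Sgk3 and Tsc22d4 gave log2 fold changes of -0.44 ± 0.23, -0.41 ± 0.23 and 0.06 ± 0.23 against WT (edgeR FDR 0.874, 0.883 and 0.999). In APP/PS1 against WT the counts above and below 0 were 4 and 8 for p53 targets, 6 and 1 for metallothionein and zinc genes, 9 and 3 for pyruvate dehydrogenase and fasting genes, and 6 and 10 for paralogues. At an unadjusted p under 0.05 at most 2 genes of any of these lists passed in any comparison. Of all tested genes 4.78% passed that p in APP/PS1xRIPK1KD against APP/PS1, 6.18% in APP/PS1xRIPK1KD against WT and 6.14% in APP/PS1 against WT. Fold changes were below 0 for 50.6%, 49.4% and 49.8% of all tested genes in the same order.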

How the data were processed

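Poly(A)-primed Smart-seq2 libraries, which keep no strand and carry no molecular identifiers, were made from sorted brain endothelial cells, per the labels' protocols. Expected counts for each gene symbol, without normalization, are what the authors deposited (28.3% of the values were not whole numbers). Bowtie 0.12.2, RSEM, edgeR 3.10.2 and the build mm10 (GRCm38) are named in the submitters' processing notes, with no annotation given in the sources used here. The authors also deposited an edgeR table of APP/PS1 against WT with log2 fold changes and log2 abundances, a likelihood ratio score, a p-value and its FDR, which was used only where it is named.

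Expected counts were rounded, filtered with filterByExpr (minimum count 10, minimum total 15), scaled by TMM and fitted in 1 edgeR 4.0.16 quasi-likelihood model with 1 coefficient per genotype over all 9 libraries. Tests were 2-sided with Benjamini-Hochberg adjustment over 13317 genes at 0.05. CPM use the TMM-scaled library sizes, and log2 CPM a prior count of 2. P-values set differences between genotypes against the spread between these libraries. The fit has no term for the sex-linked split by replicate number, so that split is part of the spread. With no molecular identifiers, floors cover counting error only. The fit was also run on simulated counts without the sex-linked split, with the median error of the fold changes as the only criterion. That run does not bear on error rates in these libraries. The 10 genes and the lists of companion genes were chosen with earlier results of these data known. Genes of the lists could be named if past the FDR. Per comparison, the 2 with the smallest p at 5 CPM or more could be named too. Not every gene that met this rule is named, and the choice among them followed no fixed rule. The 6 genes most correlated with Fkbp5 were named as well, and so were Pecam1, Cdh5 and Ripk1. Other names are marked in the text, except Hsd11b1, which was not tested. Positions and lengths are from GENCODE M21 and promoter windows from RefSeq (GRCm38.p6). Alternatives were DESeq2 1.42.0, limma-voom (limma 3.58.1), a likelihood ratio test, other scalings, filters and sample sets, a replicate block and each library left out. Software was R 4.3.3, Python 3.11.15, pandas 2.3.3 and matplotlib 3.10.9. No sample was left out of the fit.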

Additional observations from a re-analysis of the deposited data

How the results depend on the processing

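For the 10 genes, 510 values were recomputed under alternatives. Of these, 501 stayed uncalled and shifted by less than the spread between replicates, 3 moved by more than that spread and 6 passed the threshold. A called direction could not reverse, because the main fit called 0 of the 10 genes in every comparison. Fkbp5, Tsc22d3, Klf9 and Per1 were lower in APP/PS1xRIPK1KD in 17 of 17 alternatives against APP/PS1 and against WT, with Fkbp5 between -2.23 and -1.38 (FDR 0.00121 to 1.00) and between -2.28 and -1.77 (FDR 3.00e-05 to 0.436) on the log2 scale. Pdk4 kept its sign against APP/PS1 in 10 of 17, Errfi1 in 13 and Mt2 in 14. In APP/PS1 against WT Fkbp5 kept its sign in 15 of 17. Of the 10 genes, where the edgeR quasi-likelihood test called 0, DESeq2 called 1 against APP/PS1 and 2 against WT, the likelihood ratio test 1 and 1, and the fit without a filter on low counts 1 against WT (Fkbp5, FDR 0.00619). Leaving out each library in turn gave 0 to 0. Over all genes, APP/PS1xRIPK1KD against APP/PS1, APP/PS1xRIPK1KD against WT and APP/PS1 against WT had 1, 5 and 3 calls, DESeq2 made 19, 62 and 45, and the likelihood ratio test 17, 47 and 29. Counts in APP/PS1xRIPK1KD against WT were 2 with limma-voom, 8 with upper-quartile scaling, 14 with no filter, 8 with a mean CPM of at least 1, 8 with replicates 1 and 2 only and 3 with only the 2 genotypes compared. APP/PS1 against WT had 7 with no filter and 5 with a mean CPM of at least 1. APP/PS1xRIPK1KD against APP/PS1 had 0 with limma-voom and 0 with replicates 1 and 2 only, where 637 genes had an unadjusted p under 0.05 in the fit of all libraries. Leaving out each library gave 0 to 4, 2 to 9 and 1 to 5 calls in the 3 comparisons. No label ties libraries of the same number together, and the correlations of their deviations from the genotype means were between -0.0187 and 0.0983 over 13317 genes, under 0.1, so the numbers were not used as pairs. In APP/PS1 against WT every library correlated best with its own number, a hint from the data, as is the split of sex-linked transcripts by number. In APP/PS1xRIPK1KD against APP/PS1 and against WT the libraries of replicate 3 also did (0.0539 and 0.0983), but not every other library. With the replicate block the counts were 0, 0 and 2, and Fkbp5 was at -1.81 against APP/PS1 and -1.98 against WT (FDR 0.999 and 0.365). The counts over the wider glucocorticoid-induced list under each alternative were added after seeing the data. The cause of these shifts was not tested. Depth limits the low genes most: at 4.02 to 35.9 CPM Fkbp5 was above the floor in every library.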
